A study of Mus musculus with 12 samples.

Results

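RasGEF1b loss was examined in bone-marrow-derived macrophages (BMDMs) that had received lipopolysaccharide (LPS) at 100 ng/ml for 4 h, by comparing the 3 knock-out (KO) libraries of that condition with the 3 wild-type (WT) libraries, which together make up 6 of the 12 RNA-seq libraries in the series. The members were chosen by genotype and treatment alone, and every gene that passed a filter on level was tested. The other 6 libraries were untreated macrophages of both genotypes and serve here to show which differences were present without LPS. Macrophages were grown for 7 to 9 days, in medium conditioned by L929 cells, from the bone marrow of mice aged 8 to 12 weeks, and over 95% of the cells stained for F4/80 and CD11b. All mice were C57BL/6. KO mice were Rasgef1b-fl/fl;CMVcre, in which an X-linked Cre transgene active in all tissues had removed exons 7 and 8 of *Rasgef1b* throughout the body, so RasGEF1b was also missing in the progenitors of these cells and in the animals they came from. WT mice had neither the floxed allele nor Cre and came from another animal facility than the one where the KO line was made, so genotype, line and facility cannot be told apart. The labels number the libraries 1 to 3 within each group without tying them to single animals, and all p-values therefore measure only the spread between these libraries.

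RasGEF1b is a guanine nucleotide exchange factor of the Cdc25 family, which loads the small GTPase Rap2 with GTP and thereby switches it on. In macrophages its own gene is induced by ligands of Toll-like receptors. LPS from the envelope of Gram-negative bacteria is sensed by Toll-like receptor 4, whose signalling through NF-kB, MAP kinases and IRF3 switches on cytokine and chemokine genes and, by way of type I interferon, the interferon-stimulated genes.

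Values below are normalized counts, the reads of a gene divided by the size factor of the library as deposited by the authors, and 1 read was worth 1.21 to 1.41 normalized counts in the LPS-treated libraries. These libraries held 19316691 to 22912116 reads in genes, and 1.12 to 1.38% of the reads came from mitochondrial genes. The summed level of 7 macrophage markers was 314337 to 363940 in WT and 250707 to 314017 in KO, and 0 of the 7 passed the adjusted p (3 had an unadjusted limma p under 0.05, and 0 passed with edgeR or DESeq2). The T cell receptor complex genes *Cd3d*, *Cd3g* and *Trac* and the neutrophil gene *Ly6g* were at 0 in all 6 libraries, whereas the summed level of 8 neutrophil markers was 322 to 721 in WT and 424 to 1252 in KO. *Xist*, the RNA that coats the inactive X chromosome, stood at 18032 in WT replicate 1, at 17330 in KO replicate 2 and at 12.5 to 28.7 in the other 4 libraries. The Y-linked *Eif2s3y* was the opposite, at 1.31 to 5.63 in the libraries high in *Xist* and at 1424 to 1772 in the rest. Each genotype had 1 library high in *Xist*, and the counts of called genes were repeated with the *Xist* level in the fit and in the 4 libraries low in *Xist* alone. In RNA from a whole culture, fewer cells of a type and less RNA per cell cannot be told apart.

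*Rasgef1b* itself (chr5:99217426-99729065, GRCm38, minus strand) was examined first, as a check of the labels. It was read at 12554, 11854 and 11844 normalized counts in the WT libraries and at 3775, 4192 and 3618 in the KO libraries. All 3 KO libraries were far below all 3 WT libraries, and the mean level in KO was 32.0% of that in WT (log2 fold change −1.65 ± 0.07 SE, n = 3 per group, limma adjusted p = 4.2e-06). Without LPS the KO mean was 29.4% of the WT mean. The deleted exons 7 and 8 make up 199 of the 2990 bases of the 14-exon transcript, or 6.66%, and counts summed over the gene do not show which exons the remaining KO reads came from. Of 40 other tested genes within 5 Mb of *Rasgef1b*, 1 passed the adjusted p, *Hpse*, the gene of the matrix-degrading enzyme heparanase, and the median log2 fold change of the 40 was −0.02.

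Most of the transcriptome of LPS-treated macrophages was close to WT levels without RasGEF1b. Of 12504 tested genes, 93.2% lay between −0.5 and 0.5 on the log2 scale, and the median log2 fold change was −0.0015. A gene was called when its Benjamini-Hochberg adjusted p was under 0.05 and its level differed at least 2-fold. By this rule 29 genes were called (0.232% of those tested), 8 lower in KO (0.064%) and 21 higher in KO (0.168%). With the adjusted p alone 102 genes passed (0.816%), 39 lower (0.312%) and 63 higher (0.504%), so 73 genes passed with a change of less than 2-fold. A further 109 genes differed over 2-fold without passing the adjusted p. By the adjusted p alone 118 of all tested genes passed with edgeR and 221 with DESeq2. An unadjusted limma p under 0.05 was found for 1324 genes (10.6%). These counts are the background for the counts of list members below. With the *Xist* level as a term 15 genes were called lower and 25 higher, among them all 29, and in the 4 libraries low in *Xist* 8 were called lower and 8 higher, among them 13 of the 29.

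**Figure D1:**
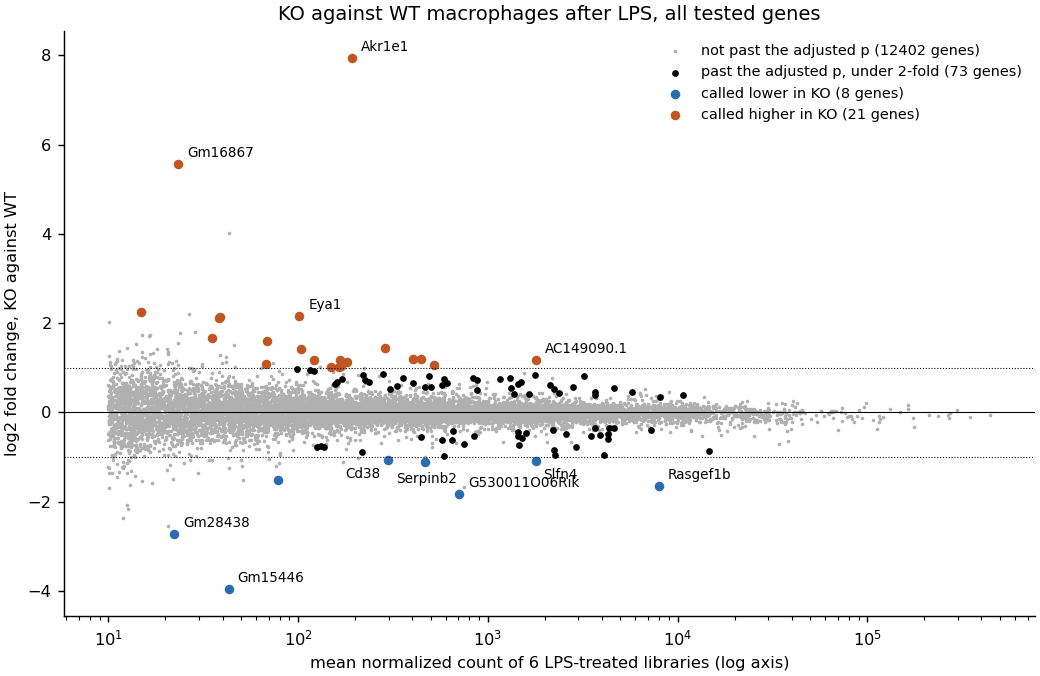
Each point is 1 of the 12504 tested genes, with its mean normalized count over the 6 LPS-treated libraries on the x axis (log scale) and its log2 fold change of KO against WT on the y axis. Dotted lines mark 2-fold, blue points are the 8 genes called lower in KO, orange points the 21 called higher and black points the 73 that passed the adjusted p under 2-fold, and the grey cloud of the other genes widens to the left, where levels are low.

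What could be called depended on the level of the gene. Among 3470 genes with a mean of 10 to 100 normalized counts, the median SE of the log2 fold change was 0.30, 11 genes passed the adjusted p (0.317%), and the smallest passing change was 0.97. Among 5157 genes from 100 to 1000 the median SE was 0.11, and 49 genes passed (0.95%), with changes down to 0.41. Among 3376 genes from 1000 to 10000 it was 0.075, 40 genes passed (1.18%), and 3 of these changed at least 2-fold. Of the 501 genes above 10000, 2 passed (0.399%), the chemokine gene *Cxcl9*, which fell, and *Lmna*, the gene of lamins A and C of the nuclear envelope, which rose, and neither changed 2-fold.

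The 10 genes with the highest counts were a mix of interferon-stimulated genes (*Rsad2*, *Ifit2*, *Cmpk2*, *Cxcl10*), lysosomal genes (*Ctsb*, *Psap*) and others of macrophages or all cells (*Actb*, *Fth1*, *Gpnmb*, *Lyz2*). Their log2 fold changes ran from −0.33 for *Lyz2*, which encodes lysozyme, to 0.04 for *Actb*, which encodes actin, and 0 of the 10 passed the adjusted p (1 had an unadjusted limma p under 0.05, and 0 passed with edgeR or DESeq2). Per kilobase of exon, their mean level ran from 32369 normalized counts for *Gpnmb* to 134664 for *Lyz2*.

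Besides *Rasgef1b*, the genes called lower in KO included *Slfn4*, *Serpinb2* and *Cd38*, which are known to respond to LPS in macrophages. *Slfn4* (chr11:83175186-83190216), an interferon- and LPS-induced member of the Schlafen family of growth regulators, was read at 2431, 2389 and 2458 normalized counts in WT and at 1084, 1285 and 1064 in KO. The WT libraries were nearly level and every KO library was below them (log2 fold change −1.09 ± 0.08 SE, n = 3 per group, adjusted p = 0.00024). It was called with each of the 6 libraries left out in turn, and its highest adjusted p was then 0.00586, without KO replicate 3. In a fit over all 12 libraries its adjusted p was 0.206. That fit shares 1 estimate of the spread over all groups, so the spread of the untreated libraries enters it too. After LPS *Slfn4* stood at 38.4 times its untreated mean in WT and at 75.8 times in KO. Its untreated KO libraries, at 8.59 to 20.5, also lay below untreated WT, at 28.7 to 107. Both ratios rest on these low untreated levels. The interaction of genotype and LPS did not pass for *Slfn4* (0.79 ± 0.52 SE on the log2 scale, limma adjusted p = 0.999).

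*Serpinb2* (chr1:107511423-107535478) encodes plasminogen activator inhibitor 2, a serine protease inhibitor that is among the most LPS-inducible proteins of macrophages. It was read at 667, 700 and 541 in WT and at 354, 246 and 291 in KO. No KO library reached the lowest WT library (log2 fold change −1.10 ± 0.14 SE, n = 3 per group, adjusted p = 0.0083). The call was lost without WT replicate 2 (adjusted p = 0.0595) or KO replicate 3 (adjusted p = 0.0543), and without KO replicate 2 the log2 fold change was −0.97, just under 2-fold. Over all 12 libraries its adjusted p was 0.318. In untreated macrophages *Serpinb2* was near the counting limit, at 2.08 to 11.2 in WT and 0.705 to 4.3 in KO, and the genotypes overlapped.

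*Cd38* (chr5:43868553-43912375), the gene of an ectoenzyme that consumes NAD and marks inflammatory macrophages, was read at 362, 363 and 488 in WT and at 195, 153 and 230 in KO. The groups did not overlap (log2 fold change −1.07 ± 0.17 SE, n = 3 per group, adjusted p = 0.02). The call was lost without WT replicate 1 (adjusted p = 0.0599), WT replicate 2 (adjusted p = 0.0773) or WT replicate 3 (adjusted p = 0.0533), and without KO replicate 2 the log2 fold change was −0.92. Over all 12 libraries its adjusted p was 0.432. After LPS *Cd38* stood at 38.3 times its untreated mean in WT and at 62.4 times in KO. These ratios rest on untreated levels near the counting limit, at 6.6 to 16.7 in WT and 0 to 6.44 in KO. The interaction of genotype and LPS did not pass for *Cd38* (0.75 ± 0.78 SE on the log2 scale, limma adjusted p = 0.999).

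*Ch25h*, *Selp* and *Ptchd1* differed about as much without passing the adjusted p with limma. *Ch25h*, whose enzyme makes the antiviral oxysterol 25-hydroxycholesterol, was read at 450, 726 and 694 in WT and at 358, 231 and 335 in KO, without overlap (log2 fold change −1.01 ± 0.20 SE, n = 3 per group, adjusted p = 0.053). It passed with edgeR (adjusted p = 0.0339) and DESeq2 (adjusted p = 1.2e-05), and not in the limma fit over all 12 libraries (adjusted p = 0.154). With limma it passed without WT replicate 1 (adjusted p = 0.0372) or KO replicate 1 (adjusted p = 0.0282). *Selp*, the gene of the adhesion receptor P-selectin, was read at 99.9, 61.4 and 163 in WT and at 60.5, 39.2 and 34 in KO. Its WT libraries were widely spread, and the change did not pass with limma (log2 fold change −1.19, adjusted p = 0.19) or edgeR (adjusted p = 0.152) but did with DESeq2 (adjusted p = 0.0146). *Ptchd1*, a gene of the Patched-domain family, was read at 84.6 to 124 in WT and 38.7 to 64.1 in KO (adjusted p = 0.057). It passed with DESeq2 (adjusted p = 0.00426), in the limma fit over all 12 libraries (adjusted p = 0.0109) and without KO replicate 2 (adjusted p = 0.0382). Unlike *Ch25h* and *Selp*, *Ptchd1* was lower after LPS than before it, at 0.488 times its untreated mean in WT and 0.353 times in KO.

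The 250 bases upstream of the start sites of *Serpinb2*, *Slfn4*, *Cd38* and *Ch25h* are shown as those of LPS-induced genes, 3 of the 8 called lower and *Ch25h*, which missed the adjusted p with limma. The sequences are from RefSeq on GRCm38.p6, run 5′ to 3′ on the strand of the gene and end at the base before the start site. They lie at chr1:107511173-107511422 for *Serpinb2*, chr11:83174936-83175185 for *Slfn4* and chr5:43868559-43868808 for *Cd38*, all on the plus strand, and at chr19:34475149-34475398 on the minus strand for *Ch25h*. The start sites are those of RefSeq. For *Cd38* the GENCODE gene starts at 43868553, so the window lies inside that gene model, and for *Ch25h* the GENCODE gene ends at 34475164, so that the last bases of the window lie inside it. Capitals mark matches on either strand to 6 short patterns, GGG and CC with any 5 bases between them for NF-kB (kB), a pair of GAAA with any 2 bases between for the interferon-stimulated response element (ISRE), TGANTCA for AP-1, TGACGTCA for the cyclic AMP response element (CRE), TTGCNNAA for C/EBP and TATAAA for the TATA box. No match overlapped another in these windows.
Serpinb2: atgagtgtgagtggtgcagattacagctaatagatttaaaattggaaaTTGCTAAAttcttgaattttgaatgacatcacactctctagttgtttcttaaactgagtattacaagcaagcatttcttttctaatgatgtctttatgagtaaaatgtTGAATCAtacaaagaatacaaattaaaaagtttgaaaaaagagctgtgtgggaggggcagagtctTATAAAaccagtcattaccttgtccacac
Slfn4: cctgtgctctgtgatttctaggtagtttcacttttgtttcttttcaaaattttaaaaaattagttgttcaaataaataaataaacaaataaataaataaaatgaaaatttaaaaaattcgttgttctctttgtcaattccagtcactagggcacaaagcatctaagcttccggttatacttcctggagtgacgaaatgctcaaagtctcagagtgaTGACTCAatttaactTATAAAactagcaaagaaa
Cd38: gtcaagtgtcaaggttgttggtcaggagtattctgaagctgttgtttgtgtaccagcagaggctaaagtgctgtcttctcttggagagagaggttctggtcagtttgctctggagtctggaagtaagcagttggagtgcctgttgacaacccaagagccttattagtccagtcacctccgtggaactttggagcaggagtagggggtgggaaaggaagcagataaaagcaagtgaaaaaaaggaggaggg
Ch25h: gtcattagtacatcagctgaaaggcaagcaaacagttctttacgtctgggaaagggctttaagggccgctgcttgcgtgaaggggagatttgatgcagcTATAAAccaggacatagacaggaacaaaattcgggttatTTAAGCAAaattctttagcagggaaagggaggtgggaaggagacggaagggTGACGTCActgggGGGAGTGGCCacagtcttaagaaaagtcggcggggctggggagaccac

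The *Serpinb2* window held a C/EBP match 202 to 195 bases upstream of the start site, an AP-1 match 94 to 88 bases upstream and a TATA match 29 to 24 bases upstream. Counted from a second RefSeq start site of *Serpinb2*, whose window is chr1:107511260-107511509, the same AP-1 and TATA matches lay 181 to 175 and 116 to 111 bases upstream, and a further C/EBP match lay 19 to 12 bases upstream. The *Slfn4* window held an AP-1 match 34 to 28 bases upstream and a TATA match 19 to 14 bases upstream. The *Ch25h* window held a TATA match at 151 to 146 bases upstream, a C/EBP match at 112 to 105, a CRE match at 61 to 54 and a kB match at 48 to 39. None of the 6 patterns was present in the *Cd38* window. Of 32851 promoter windows of this length, 45.8% held the kB pattern, 2.98% the ISRE, 6.75% the AP-1 pattern, 1.55% the CRE, 9.56% the C/EBP pattern and 12.4% the TATA pattern. A match of letters is a description of the window and does not show that a factor bound there.

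The other 4 genes called lower are little studied or non-coding. *Gm15446*, a protein-coding model on chr5 at 109923400 to 109943936, was read at 88.7, 86 and 68.2 in WT and at 4.84, 1.31 and 9.53 in KO, so that the KO mean was 6.46% of the WT mean (adjusted p = 0.0066). The groups were also far apart without LPS, where KO stood at 3.02% of WT. *Gm28438*, an unprocessed pseudogene on chr1, was read at 38, 36.8 and 43.1 in WT and at 6.05, 5.23 and 4.08 in KO (log2 fold change −2.73 ± 0.33 SE, adjusted p = 0.0064). Both lost the call without WT replicate 2, at adjusted p = 0.0525 for *Gm15446* and 0.0506 for *Gm28438*. *G530011O06Rik*, a non-coding transcript on the X chromosome, was read at 666, 1608 and 1085 in WT and at 325, 239 and 331 in KO (log2 fold change −1.83 ± 0.26 SE, adjusted p = 0.015), and lost the call without KO replicate 3 (adjusted p = 0.0608). After LPS it stood at 15.8 times its untreated mean in WT and at 13.9 times in KO. It lies opposite *Mid1*, a ubiquitin ligase gene, whose log2 fold change was −0.60 (adjusted p = 0.14), and reads of the overlapping genes cannot be told apart unless strand was used in counting, which was not given in the sources used here. *Gm49980*, a long intergenic non-coding RNA, was read at 112 to 121 in WT and 32.7 to 54.9 in KO (adjusted p = 0.015) and lost the call without WT replicate 1, WT replicate 2 or KO replicate 3, at adjusted p = 0.073, 0.0786 and 0.0646. Its adjusted p over all 12 libraries was 0.0703.

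**Figure D2:**
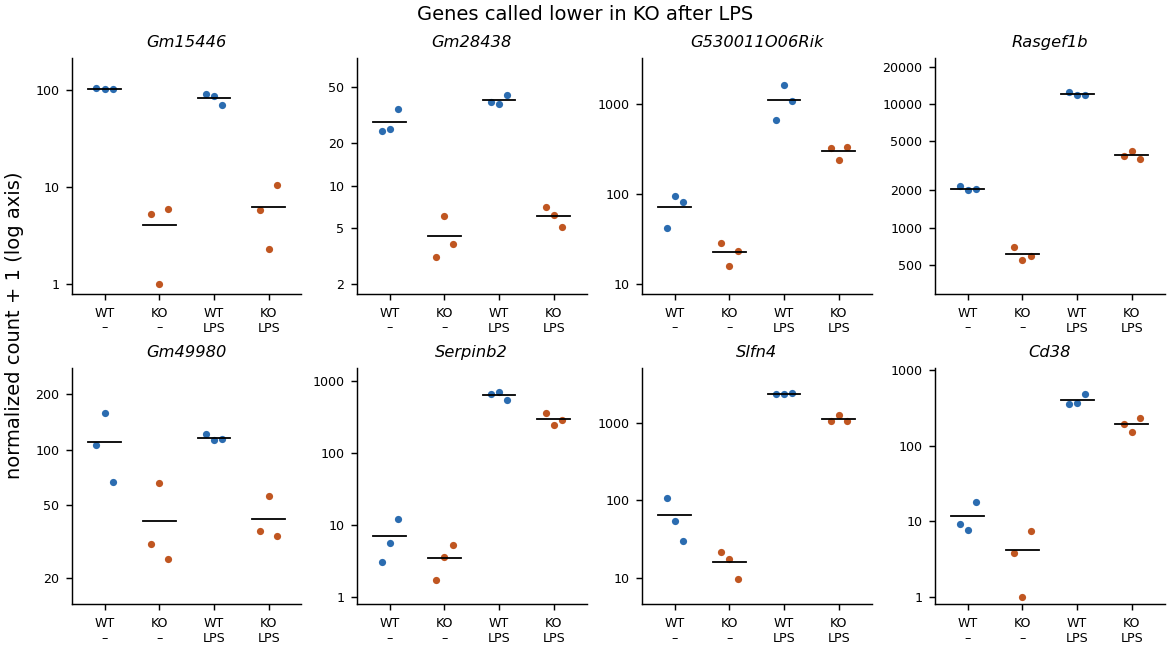
Each panel shows 1 of the 8 genes called lower in KO, with the 3 libraries of each genotype as points (WT blue, KO orange), untreated on the left and LPS-treated on the right, their mean as a bar, and the normalized count plus 1 on the y axis (log scale). After LPS every KO point lies below every WT point in each panel, and *Serpinb2* is the panel in which the untreated points overlap.

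Of the 21 genes called higher in KO, *Akr1e1* and *Gm16867* were nearly or wholly without reads in WT. *Akr1e1* (chr13:4590750-4609174), the gene of an aldo-keto reductase, had 0, 0 and 2 reads in the WT libraries and 340, 277 and 277 in the KO libraries. The KO group held 894 reads in all against 2, a depth-corrected ratio of 415 with a 95% interval for counting error of 115 to 3436, and the adjusted p was 5.1e-05. It was the same without LPS, where normalized counts were 0.66 to 0.797 in WT and 388 to 397 in KO. *Gm16867*, a protein-coding model on chr14, had 0 reads in all WT libraries and 108 in the KO libraries, which is at least 33.5-fold higher against a floor of 3 counts over the WT group (adjusted p = 0.00054). Both kept the call with each library left out.

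*Eya1*, *Mycl*, *Nr4a3* and *Atf7ip2*, which regulate transcription, were also called higher. *Eya1*, a phosphatase and transcriptional coactivator of organ development, was read at 42.2, 23.2 and 47.3 in WT and at 128, 179 and 189 in KO, all KO libraries above all WT libraries (log2 fold change 2.15 ± 0.27 SE, n = 3 per group, adjusted p = 0.0066), and lost the call without KO replicate 3 (adjusted p = 0.0543). *Mycl*, a MYC family transcription factor, was at 0.716 to 1.41 normalized counts in the untreated libraries and after LPS at 291, 352 and 360 in WT and at 680, 799 and 630 in KO (log2 fold change 1.07 ± 0.12 SE, n = 3 per group, adjusted p = 0.0055). Without WT replicate 1 or KO replicate 2 its log2 fold change was 0.97. *Nr4a3*, an orphan nuclear receptor of the immediate early class, was read at 108, 99.6 and 87.6 in WT and at 206, 229 and 169 in KO (log2 fold change 1.02 ± 0.15 SE, n = 3 per group, adjusted p = 0.018). Its call was lost without WT replicate 2 (adjusted p = 0.0813) or KO replicate 2 (adjusted p = 0.056) and, by size, without WT replicate 3 or KO replicate 1. The smallest of these log2 fold changes was 0.92, and over all 12 libraries its adjusted p was 0.131. *Mycl* and *Nr4a3* were near the counting limit without LPS and the genotypes overlapped there. *Atf7ip2*, a homologue of a chromatin regulator, was read at 14.1, 10.9 and 16.7 in WT and at 67.7, 56.2 and 66.7 in KO (log2 fold change 2.13 ± 0.26 SE, n = 3 per group, adjusted p = 0.0064) and was called with each library left out.

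Secreted factors and protease or ubiquitin genes were also called higher. *Pdgfb*, the B chain of platelet-derived growth factor, was read at 85.9, 111 and 110 in WT and at 214, 275 and 206 in KO (log2 fold change 1.17 ± 0.16 SE, adjusted p = 0.012), and lost the call without WT replicate 2 (adjusted p = 0.0506). Untreated libraries were far higher, at 1793 to 1923 in WT and 2273 to 2490 in KO. *Penk*, the precursor of the enkephalin peptides, was read at 47.8 to 73.2 in WT and 127 to 195 in KO (log2 fold change 1.41, adjusted p = 0.022), and lost the call without WT replicate 2 (adjusted p = 0.107), WT replicate 3, KO replicate 2 or KO replicate 3. *Serpinb6b*, an intracellular protease inhibitor, was read at 235, 280 and 285 in WT and at 720, 622 and 512 in KO and was called with each library left out (log2 fold change 1.20 ± 0.13 SE, adjusted p = 0.0055), so that the serpins held a member on either side of the comparison. *Uchl1*, a deubiquitinating enzyme best known from neurons, was read at 132, 157 and 168 in WT and at 328, 564 and 382 in KO (log2 fold change 1.44 ± 0.18 SE, adjusted p = 0.0081), and its adjusted p was 0.0506 without WT replicate 2.

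Surface molecules called higher were *Cd24a*, a small heavily glycosylated membrane protein, *Spn*, the sialomucin CD43 of leukocytes, and *Ptgfrn*, a partner of tetraspanins. *Cd24a* was read at 98.5, 116 and 109 in WT and at 284, 192 and 188 in KO. *Spn* was read at 94.3, 113 and 121 in WT and at 277, 199 and 208 in KO. For both genes KO replicate 1 was the highest library, and without it the log2 fold changes of 1.01 and 1.04 became 0.82 and 0.90. Both also lost the call without WT replicate 1, WT replicate 2 or KO replicate 3, with adjusted p up to 0.138 and 0.0828, and *Cd24a* without WT replicate 3. *Spn* and *Cd24a* are also expressed by neutrophils and lymphocytes, the summed neutrophil markers were given above, and their part in these changes was not tested. *Ptgfrn* was low, at 13.6 to 20.9 in WT and 41.1 to 75.8 in KO (log2 fold change 1.66 ± 0.31 SE, adjusted p = 0.04), and lost the call when any library but KO replicate 1 was left out, with an adjusted p of up to 0.158 without WT replicate 2.

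The remaining genes called higher act on glycans, the cytoskeleton and membrane traffic, or are poorly known. *Chsy3*, a chondroitin synthase, was near the lower limit of testing, at 2.78 to 7.04 in WT and 20.4 to 31.4 in KO (adjusted p = 0.044), and passed with none of the 6 libraries left out. *Fhod3*, a formin that nucleates actin filaments, *Arfgef3*, of the family of Arf exchange factors, *Cpne8*, a copine, and *Ppic*, the cyclophilin C gene, had log2 fold changes of 1.08, 1.17, 2.11 and 1.13, and each lost the call without WT replicate 1, WT replicate 2, KO replicate 2 or KO replicate 3, with adjusted p up to 0.163, and *Cpne8* also without WT replicate 3. *Trp53i11*, a p53-inducible gene, rose from 23.9 to 41.7 in WT to 86.3 to 121 in KO (adjusted p = 0.018), and lost the call without WT replicate 2 or KO replicate 3 (adjusted p up to 0.0855), and over all 12 libraries its adjusted p was 0.168. *AC149090.1*, a protein-coding model on the unplaced scaffold JH584304.1, was read at 1198, 1029 and 1074 in WT and at 2571, 2211 and 2624 in KO (log2 fold change 1.16 ± 0.09 SE, adjusted p = 0.00024) and was called with each library left out.

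**Figure D3:**
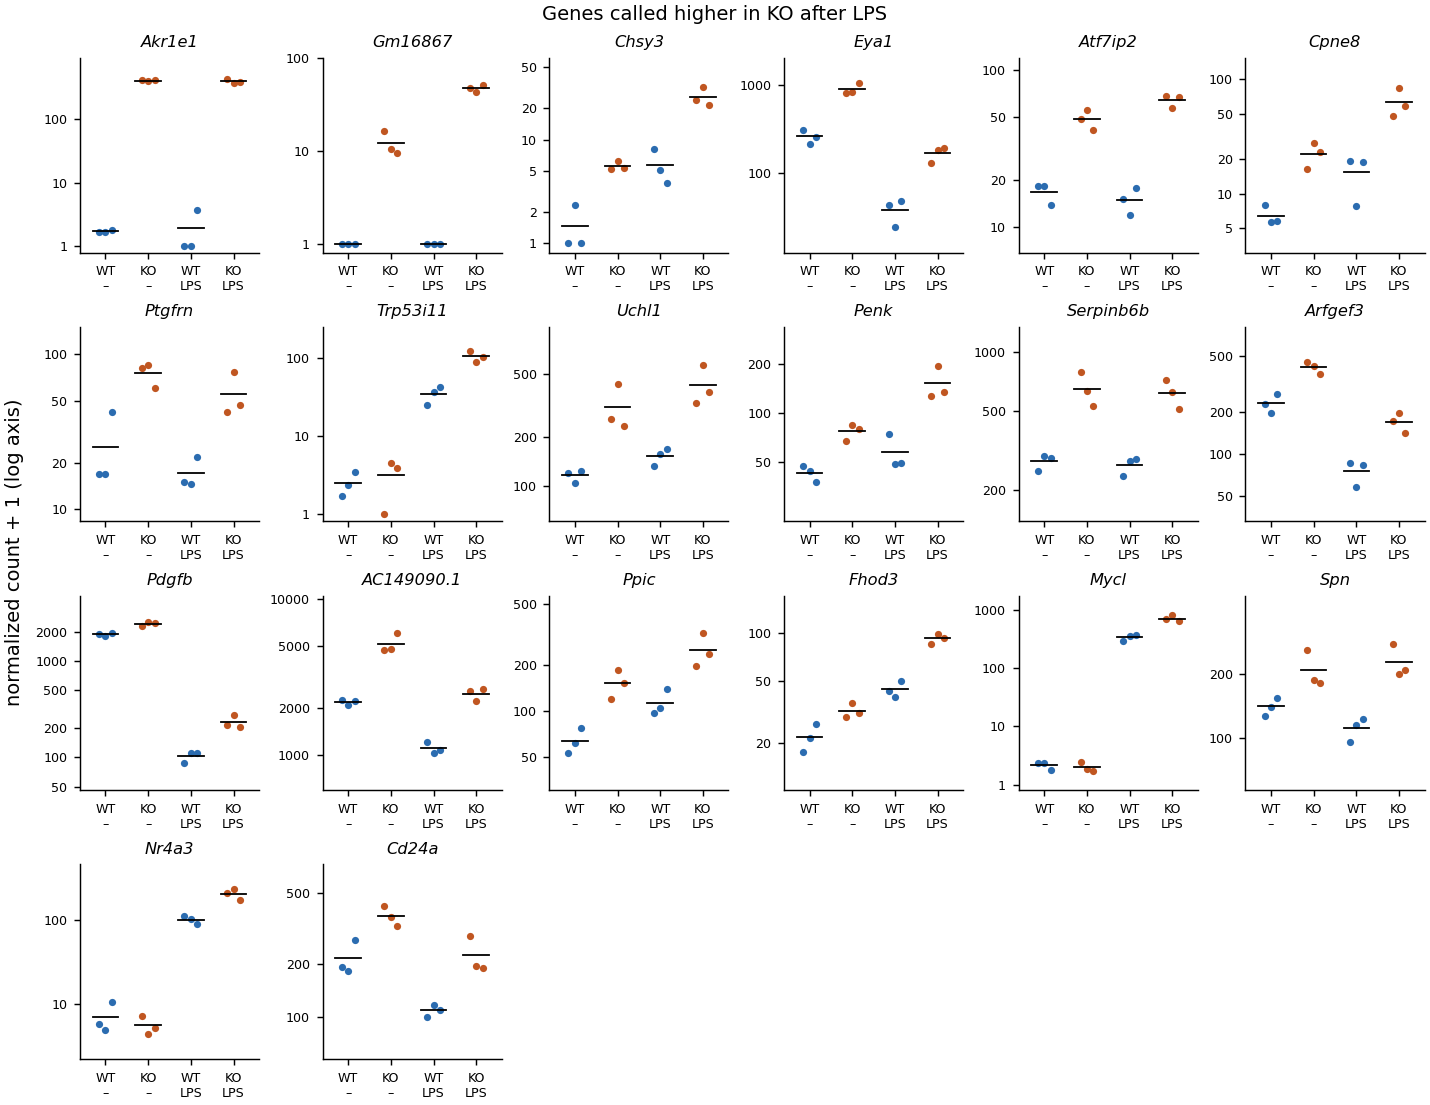
Each panel shows 1 of 20 of the 21 genes called higher in KO, with the 3 libraries of each genotype as points (WT blue, KO orange), untreated on the left and LPS-treated on the right, their mean as a bar, and the normalized count plus 1 on the y axis (log scale). After LPS every KO point lies above every WT point in each panel, and in all panels but those of *Nr4a3*, *Mycl* and *Trp53i11* this also holds without LPS.

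Genes that fell by less than 2-fold included secreted mediators of inflammation. *Il12b*, the p40 subunit of interleukins 12 and 23, was read at 3328, 3130 and 2462 in WT and at 1277, 2025 and 1342 in KO, without overlap (log2 fold change −0.96 ± 0.17 SE, n = 3 per group, adjusted p = 0.03). Its adjusted p rose above the threshold without WT replicate 1, WT replicate 2 or KO replicate 3, to at most 0.163. *Cxcl9*, an interferon-gamma-inducible chemokine for T cells, was read at 20376, 18686 and 16884 in WT and at 13727, 7959 and 9780 in KO (log2 fold change −0.86 ± 0.16 SE, adjusted p = 0.044), and lost the threshold when any library but KO replicate 1 was left out, with an adjusted p of up to 0.203 without WT replicate 1. *Ccl8*, a chemokine for monocytes, was read at 3289, 3855 and 3881 in WT and at 2008, 1851 and 2596 in KO (log2 fold change −0.78 ± 0.12 SE, adjusted p = 0.018), and did not pass without WT replicate 2 (adjusted p = 0.102) or WT replicate 3. All 3 stood far above their untreated levels, which were lower in KO for *Ccl8*, at 18.3 to 27.9 against 63.7 to 134. For *Il12b* and *Cxcl9* the untreated genotypes overlapped near the counting limit, at 0 to 2.82 and at 6.35 to 14.5. This overlap does not show that the genotypes were alike without LPS.

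Other named genes of varied function also fell by less than 2-fold. *Siglec1*, the sialic acid receptor CD169, was read at 5492, 5289 and 5317 in WT and at 3725, 2212 and 2509 in KO (log2 fold change −0.97, adjusted p = 0.021), and did not pass without WT replicate 1, WT replicate 2, WT replicate 3 or KO replicate 3 (adjusted p up to 0.122). *Ly86*, which encodes MD-1, a partner of the Toll-like receptor homologue RP105, was read at 2865, 2616 and 3106 in WT and at 1670, 1368 and 1797 in KO (log2 fold change −0.83 ± 0.10 SE, adjusted p = 0.0066) and passed with each library left out. *Ints6l*, a paralogue of a subunit of the Integrator complex, also passed with each library left out and fell from 692 to 883 in WT to 339 to 425 in KO (log2 fold change −0.98). *Scimp*, an adaptor of Toll-like receptor signalling, *Marchf1*, a ubiquitin ligase for MHC class II, *Hpse*, *Timp1*, an inhibitor of metalloproteinases, *Zranb3*, a DNA translocase, and *Trps1*, a transcriptional repressor, fell by 0.61, 0.53, 0.49, 0.71, 0.57 and 0.53 on the log2 scale. Each of these 6 lost the threshold without 2 or 3 of the 6 libraries, WT replicate 2 among them in every case, with adjusted p up to 0.12. A loss without WT replicate 2 was not particular to these genes, since 19 of the 29 called genes also lost the call there. *Timp1* lies within *Syn1*, on the other strand, which also passed lower, and their reads may be shared. *Cd4*, which is also expressed by macrophages, was read at 173, 151 and 153 in WT and at 83.5, 98.1 and 95.3 in KO (log2 fold change −0.78, adjusted p = 0.034) with *Cd3d*, *Cd3g* and *Trac* at 0, and it did not pass with any of the 6 libraries left out.

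Among genes that rose by less than 2-fold were further transcription factors. *Cebpb*, a leucine zipper factor that drives many LPS-induced genes, was read at 3848, 3907 and 3563 in WT and at 5075, 5318 and 6200 in KO, without overlap (log2 fold change 0.55 ± 0.08 SE, n = 3 per group, adjusted p = 0.018). It did not pass without WT replicate 1, WT replicate 2 or KO replicate 3, where the adjusted p was at most 0.0813, and untreated libraries of the genotypes overlapped. *Jdp2*, a repressor of AP-1, was read at 936, 932 and 1035 in WT and at 1473, 1810 and 1665 in KO and passed with each library left out (log2 fold change 0.77 ± 0.09 SE, adjusted p = 0.0061). *Zeb1*, a zinc finger repressor, was read at 403 to 504 in WT and 675 to 778 in KO (log2 fold change 0.75, adjusted p = 0.014), and did not pass without WT replicate 1 or WT replicate 2, where the adjusted p was at most 0.0773. *Ciita*, the transactivator of MHC class II genes, was read at 137, 128 and 117 in WT and at 204, 237 and 201 in KO (log2 fold change 0.75 ± 0.13 SE, adjusted p = 0.03), and passed without KO replicate 1 but not without any other library, with an adjusted p of up to 0.12 without WT replicate 2. *Ciita* was the only one of the 102 genes whose untreated groups were apart in the opposite direction, at 44.9 to 80.5 in WT and 25.7 to 33.7 in KO. The difference between its changes was 1.69 on the log2 scale and did not pass the test for an interaction (adjusted p = 0.127, and 0.105 with libraries of the same number paired).

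Others that rose by less than 2-fold serve protein turnover, clearance and signalling. *Ufd1*, part of the machinery that extracts ubiquitinated proteins, was read at 853, 880 and 857 in WT and at 1338, 1632 and 1376 in KO (log2 fold change 0.74 ± 0.09 SE, adjusted p = 0.0061). *Psmd6*, a subunit of the proteasome lid, was read at 2343, 2392 and 2283 in WT and at 4398, 3422 and 4530 in KO (log2 fold change 0.80 ± 0.10 SE, adjusted p = 0.0066), and its adjusted p was 0.0506 without WT replicate 2. *Vwf*, the clotting glycoprotein of endothelial cells and platelets, was read at 559, 626 and 672 in WT and at 988, 1141 and 1025 in KO (log2 fold change 0.77 ± 0.09 SE, adjusted p = 0.0064), while the summed level of 4 endothelial markers was 799 to 1074 in WT and 964 to 1283 in KO, with *Tek* at 0. *Ufd1* and *Vwf* passed with each library left out, and both were higher in untreated KO as well. *Mfge8*, which bridges apoptotic cells to phagocytes, *Adap1*, an Arf GTPase-activating protein, *Gngt2*, a G protein gamma subunit, and the non-coding RNA *AU020206* rose by 0.53, 0.64, 0.83 and 0.67, and each lost the threshold without 1 to 3 libraries, WT replicate 2 among them in every case. Of the 34 named genes that passed under 2-fold, 5 passed with each library left out, *Ints6l*, *Ly86*, *Jdp2*, *Ufd1* and *Vwf*. In the limma fit over all 12 libraries 12 of the 34 did not pass, among them *Il12b* (adjusted p = 0.308), *Cxcl9* (0.158), *Ccl8* (0.143), *Siglec1* (0.211) and *Ciita* (0.0947). Of the called genes 7 of the 28 it tested did not pass. Its p-values also take in the spread of the untreated libraries, where genes such as *Il12b*, *Serpinb2* and *Cd38* were near the counting limit. They therefore do not measure the spread after LPS alone.

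The RasGEF1b pathway was read gene by gene around the deleted gene. Its relative *Rasgef1a* was low, at 32.4, 13.6 and 32 normalized counts in WT and 27.8, 27.5 and 29.9 in KO (log2 fold change 0.22 ± 0.34 SE, adjusted p = 0.88), and *Rasgef1c* had 4 reads in the WT group and 3 in the KO group. *Rap2a*, a substrate GTPase, was read at 1343, 1374 and 1333 in WT and at 1695, 1483 and 1572 in KO, above WT in each library but without passing the test (log2 fold change 0.23 ± 0.07 SE, adjusted p = 0.25). The values of *Rap2b* and *Rap2c* were 0.11 and −0.09. Of 15 Ras family GTPases 0 passed in either direction, with a median log2 fold change of 0.03 (2 had an unadjusted p under 0.05, 0 passed with edgeR and 1 with DESeq2). Of 17 tested exchange factors for Ras and Rap 2 passed, both lower, *Rasgef1b* and *Rapgef2*, which activates Rap1 and was read at 8291, 8412 and 8077 in WT and at 5818, 6585 and 6473 in KO (log2 fold change −0.39 ± 0.07 SE, adjusted p = 0.03). *Rapgef2* did not pass without WT replicate 1, WT replicate 2, WT replicate 3 or KO replicate 3, with an adjusted p of up to 0.169. None of 17 GTPase-activating proteins and of 15 effectors of Rap2 and Ras passed, with medians of −0.05 in both lists, and neither edgeR nor DESeq2 added any. An unadjusted p under 0.05 was found for 2 and 4 of them, against 10.6% of all tested genes.

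The pathways downstream of Toll-like receptor 4 were read from lists of known members. None of 28 Toll-like receptors and proximal signalling genes and none of 22 NF-kB subunits, inhibitors and feedback genes passed, and both medians were −0.02. The counts at an unadjusted p under 0.05 were 2 and 1, against 10.6% of all tested genes, and 0 passed with edgeR or DESeq2. *Scimp* and *Ly86*, which passed lower and are described above, were not in these lists. Of 26 immediate early and ERK feedback genes *Nr4a3* and *Mycl* rose and *Ier3*, an early gene that modulates survival, fell by 0.46, with a median of 0.02. *Ier3* passed without KO replicate 2 but not without any other library, with an adjusted p of up to 0.19. Of 19 C/EBP and myeloid transcription factors *Cebpb* rose, 15 of the 19 values were positive and the median was 0.13, or 0.04 without WT replicate 1 and 0.23 without WT replicate 3. With 1 library left out the medians of the Toll-like receptor list ran from −0.05 to 0.04, those of the NF-kB list from −0.05 to 0.04 and those of the immediate early list from −0.05 to 0.13, so their sign depended on single libraries.

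Of 19 inflammatory cytokines *Il12b* alone passed with limma, and the median was −0.07. With edgeR 1 of the 19 passed and with DESeq2 2. *Tnf*, the gene of tumour necrosis factor, was read at 29469, 29064 and 29746 in WT and at 28227, 31705 and 31116 in KO, overlapping. *Il1b*, the gene of interleukin 1 beta, was read at 17794, 16325 and 17892 in WT and at 10402, 21580 and 14557 in KO, with KO libraries both lowest and highest. Of 21 chemokine ligands *Cxcl9* and *Ccl8* fell by limma, with a median of −0.06. With edgeR 2 of the 21 passed and with DESeq2 5, against 118 and 221 of all tested genes. An unadjusted limma p under 0.05 was found for 9 of the 21, against 10.6% of all tested genes. Without LPS the median difference of the list was −0.38. There 11 of the 21 were lower without overlap and 1 higher, against 7.82% and 8.22% of all tested genes.

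None of 44 interferon-stimulated genes passed with limma, edgeR or DESeq2, and 1 had an unadjusted limma p under 0.05. Their log2 fold changes ran from −0.22 to 0.14, 38 of the 44 were below 0, and the median was −0.07, or −0.13 without KO replicate 1 and −0.02 without KO replicate 2. The groups did not overlap for 5 of the 44, all lower in KO, against 7.73% of all tested genes lower without overlap and 8.35% higher. *Rsad2* and *Ifit2*, both antiviral effectors, had the highest levels of the list and log2 fold changes of −0.07 and −0.14. Without LPS the median difference of the list was −0.50, with 2 of the 44 lower without overlap. Of 8 Schlafen genes *Slfn4* fell, and the values of *Slfn5* and *Slfn2*, the members with the most reads, were −0.14 and −0.09. Reads that fit several members of a family such as the Schlafen genes or serpins could have been lost or split in counting, which was not given in the sources used here.

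**Figure D4:**
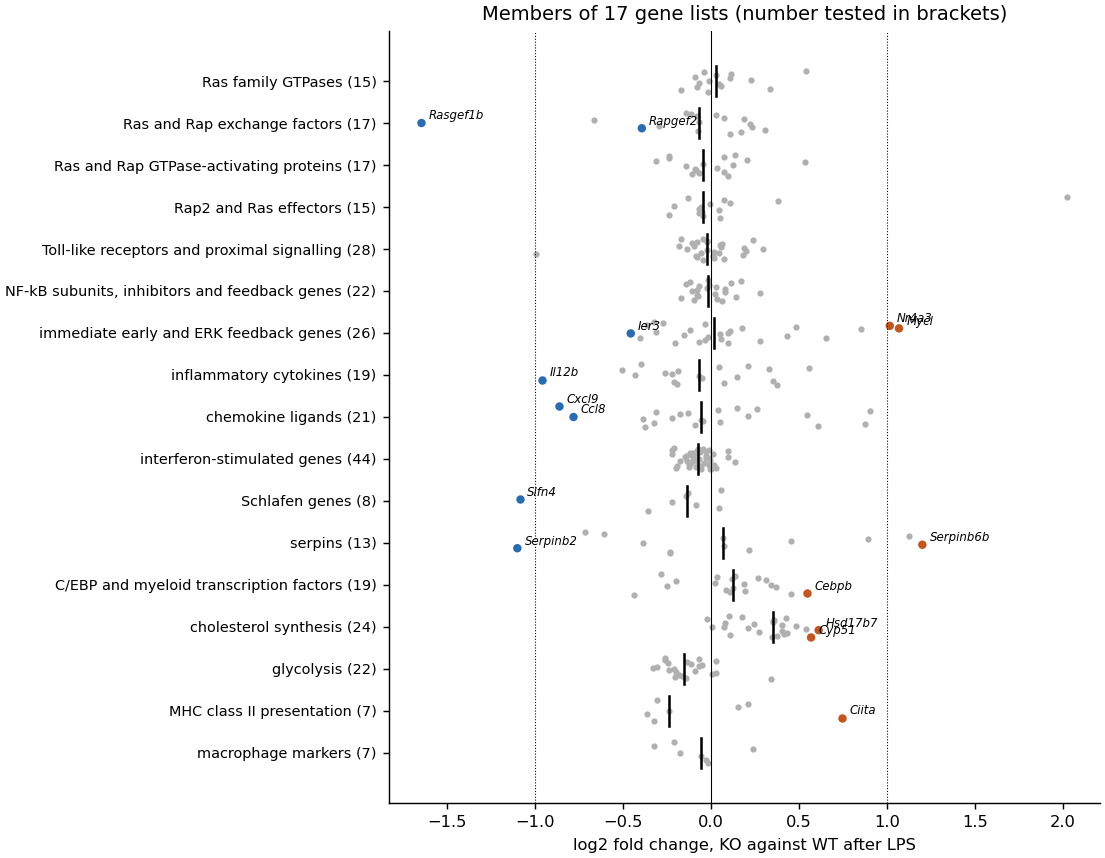
Each point is a tested member of 1 of 17 gene lists (number tested in brackets), placed by its log2 fold change of KO against WT after LPS on the x axis. Coloured points, with gene names, passed the adjusted p (blue lower, orange higher), black bars are list medians and dotted lines mark 2-fold, and the median of cholesterol synthesis, at 0.35, lies farthest from 0 among these lists.

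Cholesterol synthesis was the list with the highest median. Of its 24 tested members 2 passed, both higher, *Cyp51*, the lanosterol demethylase, and *Hsd17b7*, a reductase of the same part of the pathway. *Acat2*, a related gene that was not in the list, also passed higher (log2 fold change 0.58 ± 0.11 SE, limma adjusted p = 0.049). *Cyp51* was read at 2065, 2328 and 2427 in WT and at 2984, 3426 and 3721 in KO (log2 fold change 0.57 ± 0.09 SE, n = 3 per group, adjusted p = 0.025). *Hsd17b7* was read at 442, 435 and 483 in WT and at 606, 769 and 712 in KO (log2 fold change 0.61 ± 0.10 SE, n = 3 per group, adjusted p = 0.028). *Cyp51* and *Hsd17b7* were higher in every KO library, and each lost the threshold without WT replicate 1, WT replicate 2, KO replicate 2 or KO replicate 3, with adjusted p up to 0.122 and 0.139. Of the 24 values 23 were above 0, from −0.02 to 0.61, the median was 0.35 (0.27 to 0.43 with 1 library left out), and 14 of the 24 were higher in KO without overlap, against 8.35% of all tested genes. *Srebf2*, the master transcription factor of the pathway, was read at 5934, 5912 and 6462 in WT and at 6754, 6797 and 7101 in KO (log2 fold change 0.18 ± 0.06 SE, adjusted p = 0.36). Without LPS the median difference of the list was 0.42, and 20 of its 24 members were higher in KO without overlap, against 8.22% of all tested genes.

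Glycolysis lay on the other side. None of its 22 genes passed with limma, edgeR or DESeq2, 10 had an unadjusted limma p under 0.05 (10.6% of all tested genes did), 18 had negative values, the median was −0.16, and the groups did not overlap for 10, lower in KO, and for 1, higher, against 7.73% and 8.35% of all tested genes. *Ldha*, the lactate dehydrogenase gene, was read at 18720, 19364 and 17100 in WT and at 15186, 16404 and 15100 in KO (log2 fold change −0.24 ± 0.08 SE, adjusted p = 0.25), and was chosen after its values were seen. Without LPS 11 of the 22 were lower without overlap, against 7.82% of all tested genes, and the median was −0.21.

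Of the 22 tested genes of NAD metabolism *Cd38* alone passed, and of 14 oxysterol and LXR genes none passed with limma (3 at an unadjusted p under 0.05), 1 with edgeR and 2 with DESeq2, with a median of 0.00. None of 14 genes of plasminogen activation and coagulation passed with any of the 3 tools (5 at an unadjusted p under 0.05, against 10.6% of all tested genes). That list left out *Serpinb2* and *Vwf*, which passed and are described above. Of 24 adhesion molecules and integrins *Spn* and *Cd24a* rose, and of 13 serpins *Serpinb2* fell and *Serpinb6b* rose. Of 7 genes of MHC class II presentation *Ciita* rose, whereas the median of the list was −0.24, or 0.15 without KO replicate 2. None of 23 phagocytic and scavenger receptors and of 15 complement genes passed with limma or edgeR, with medians of −0.17 and −0.20, the latter −0.08 without KO replicate 2. By DESeq2 2 and 1 of them passed, and by an unadjusted limma p under 0.05 10 and 4 did, against 10.6% of all tested genes. The receptor list left out *Siglec1*, which fell as described above, and *Colec12*, which rose by 0.72 (limma adjusted p = 0.03). None of 11 tested mitochondrially encoded genes passed with limma or edgeR (1 with DESeq2 and 5 at an unadjusted p under 0.05), with a median of 0.22. *Nos2* and *Acod1*, which make nitric oxide and itaconate in activated macrophages, had log2 fold changes of −0.42 and 0.00, and neither passed with limma or edgeR, while *Nos2* passed with DESeq2 (adjusted p = 0.0189). In the same list *Ass1*, which supplies arginine, rose by 0.81 (adjusted p = 0.049) and passed without KO replicate 3 but not without any other library, with an adjusted p of up to 0.208.

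Single genes in other lists passed as well. *Ccnd1*, the gene of cyclin D1, fell by 0.49 and *Ccnb2*, the gene of cyclin B2, rose by 0.56 among 28 cell cycle genes. *Bcl2l11*, the death-inducing BH3 protein Bim, rose by 0.61 among 25 cell death regulators, and *Pde1c*, a cyclic nucleotide phosphodiesterase, rose by 0.94 among 22 genes of cyclic nucleotide signalling. Each of the 4 lost the threshold without at least 3 of the 6 libraries, WT replicate 2 and KO replicate 3 among them in every case, with the highest adjusted p at 0.152 for *Ccnd1*, 0.144 for *Ccnb2*, 0.188 for *Bcl2l11* and 0.173 for *Pde1c*.

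Most of the differences seen after LPS were also present without it. Of the 8 genes called lower, 7 were lower without overlap in untreated KO, where 7.82% of all tested genes were, and of the 21 called higher, 18 were higher without overlap, where 8.22% were. Of the 39 genes that passed lower 26 were lower untreated without overlap, and of the 63 that passed higher 43 were higher. The treated and untreated libraries are separate, and within each genotype those of the same number deviated together, so the untreated libraries may not be independent of the treated ones. In WT 5 of the 8 genes called lower and 7 of the 21 called higher stood at least 2-fold above their untreated mean after LPS, as did 2433 (19.5%) of all tested genes.

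**Figure D5:**
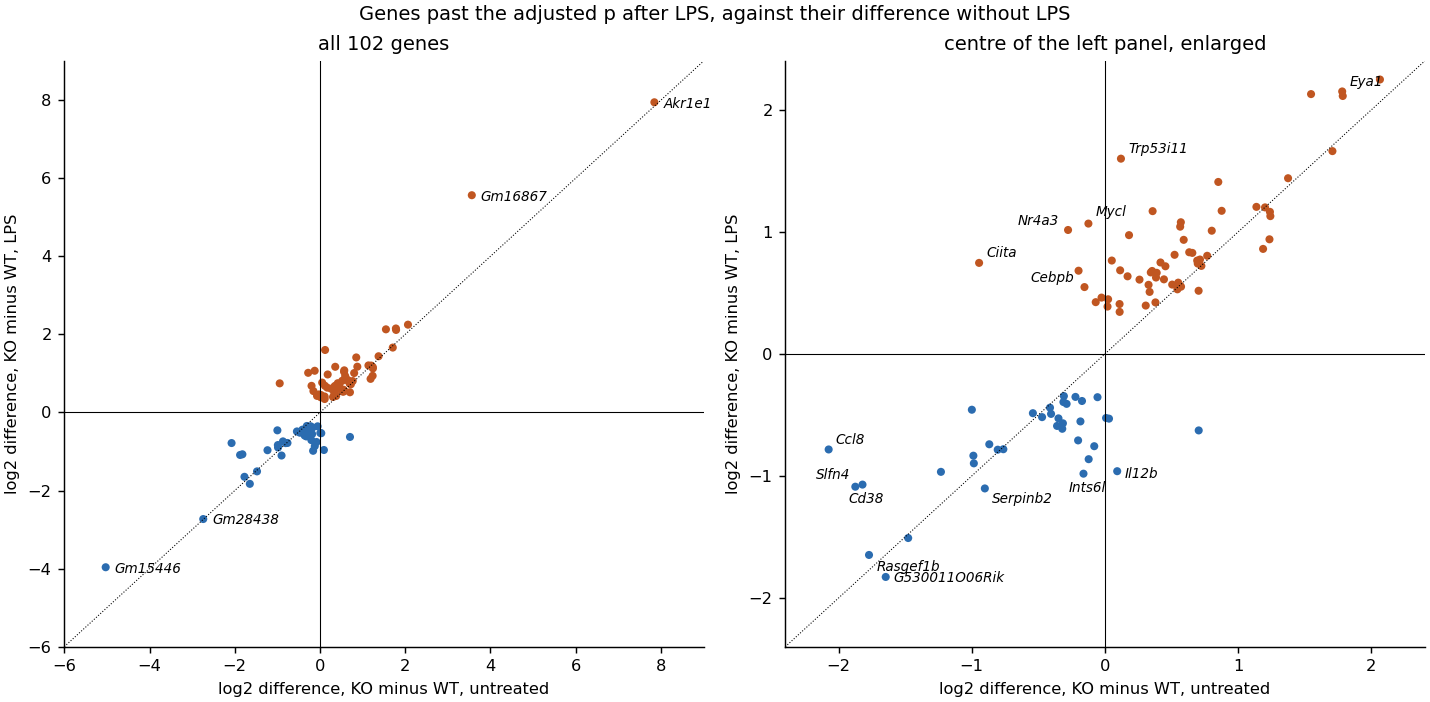
The 102 genes that passed the adjusted p after LPS, with the log2 difference between KO and WT in untreated macrophages on the x axis and after LPS on the y axis (blue lower after LPS, orange higher, dotted line equal differences), all of them on the left and the centre enlarged on the right. The signs were the same for 35 of the 39 genes lower after LPS and 56 of the 63 higher. Among those with opposite signs *Ciita* is the only one whose untreated groups do not overlap. *Mycl*, *Nr4a3*, *Cebpb*, *Ints6l* and *Il12b* lie near 0 on the x axis or farther from 0 on the y axis than on the x axis. Untreated levels of *Mycl*, *Nr4a3* and *Il12b* were near the counting limit.

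Whether a genotype difference itself changed with LPS was tested by the interaction of genotype and treatment over all 12 libraries. Of 12711 tested genes 1 passed (0.00787%) and 537 had an unadjusted p under 0.05 (4.22%). The gene that passed was *Ccl4*, the gene of the chemokine MIP-1 beta. Untreated it was read at 1142, 1248 and 1202 in WT and at 642, 605 and 571 in KO, and after LPS at 43449, 43074 and 42068 in WT and at 41246, 40434 and 42622 in KO. The genotypes were apart without LPS and overlapped after it, and the difference of the log2 changes was 0.93 ± 0.08 (SE, adjusted p = 3.7e-04, n = 3 per group, limma). The *Ccl4* difference after LPS alone was −0.05. With untreated and treated libraries of the same number paired within each genotype 6 genes passed (0.0472%), *Ccl4* (adjusted p = 0.0016), *Ccl3*, *Cp*, *Vcam1*, *Nos2* and *Ifit1bl1*. *Ccl3*, the neighbour and relative of *Ccl4*, had a log2 difference of −0.62 untreated and 0.05 after LPS (adjusted p = 0.10 unpaired and 0.0089 paired). *Vcam1*, an adhesion molecule, was read untreated at 50.5 to 140 in WT and 5.64 to 10.3 in KO and after LPS at 3323 to 3856 in WT and 2082 to 4372 in KO (adjusted p = 0.13 unpaired and 0.016 paired). *Nos2*, the inducible nitric oxide synthase, was the reverse, with a difference of 0.57 untreated and −0.42 after LPS (adjusted p = 0.24 unpaired and 0.0016 paired). Its untreated difference rests on low levels, at 12.5 to 16.7 in WT and 20.5 to 22.6 in KO. After LPS *Nos2* was read at 36177 to 53922 in WT and 30509 to 34087 in KO. Of the 29 genes called after LPS, 28 were in this fit, all but *Chsy3*, and none of the 28 passed in either form, so a change of these differences with LPS was not shown.

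Outside the tested range, genes with reads in 1 genotype and few in the other were looked for by recovered reads. *Amd2*, an S-adenosylmethionine decarboxylase gene, had 3, 16 and 11 reads in WT and 1, 2 and 0 in KO, which is 10.8-fold higher in WT with a 95% interval for counting error of 3.35 to 55.1. *Rpl39l*, a ribosomal protein paralogue, had 3 reads in WT and 33 in KO, a ratio of 10.2 with an interval of 3.21 to 52.1. *Gm25405* had 1 read in WT and 43 in KO, a ratio of 40.0 with an interval of 6.80 to 1615. These genes were chosen from the same reads, for reads in 1 genotype, few in the other and no overlap, so their ratios were bound to be large. The intervals cover counting error only and not this choice.

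Of the large differences that did not pass the adjusted p, 3 are given, chosen after their values were seen. *F13a1*, the A subunit of coagulation factor XIII, was read at 797, 897 and 1611 in WT and at 704, 141 and 355 in KO (log2 fold change −1.67 ± 0.47 SE, adjusted p = 0.19). *Catspere2*, a sperm channel gene, was read at 7.04, 32.8 and 70.9 in WT and at 7.26, 1.31 and 4.08 in KO (log2 fold change −2.55, adjusted p = 0.22). *Gm21860*, a model on the Y chromosome, was read at 0, 2.73 and 20.9 in WT and at 105, 32.7 and 96.6 in KO (log2 fold change 4.02, adjusted p = 0.10). The libraries high in *Xist*, WT replicate 1 and KO replicate 2, held its values of 0 and 32.7, the lowest of each genotype. The part of the *Xist* level in the difference of *Gm21860* was not tested singly, and its values in the fits that used that level are not given here. Of the 3 genes, the groups did not overlap for *F13a1* and *Gm21860*, and they overlapped for *Catspere2*. Over all tested genes 2011 (16.1%) did not overlap between genotypes.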

How the data were processed

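RNA from 12 cultures of bone-marrow-derived macrophages (3 per genotype and treatment) had been sequenced. Per the file headers and the study's methods the authors trimmed reads (Trimmomatic 0.39), aligned them to GRCm38 (STAR 2.7.4a), counted them per gene (featureCounts of Subread 2.0.1) and deposited a normalized count signal, divided by DESeq2 1.32.0 size factors, for 55487 gene models. Strand setting and treatment of multi-mapping reads were not given in the sources used here. Every deposited value was a whole multiple of 1 read per library (100% within 1e-06), so reads were recovered for the count tests.

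Here KO and WT were compared in the 6 LPS-treated libraries with limma 3.58.1 (R 4.3.3, variance trend) on log2(normalized count + 1), for genes with a mean of at least 10, so that fold changes of low genes are understated. Adjusted p-values are limma's with Benjamini-Hochberg adjustment over all tested genes. A genotype-by-LPS interaction was tested over all 12 libraries. Alternatives were edgeR 4.0.16 and DESeq2 1.42.0 on recovered reads, other pseudocounts, filters, scalings, variance models and thresholds, a replicate block, 1 fit over all 12 libraries, and leaving out each library.

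Between untreated and LPS-treated libraries of the same number, deviations from the group means correlated at 0.33, 0.19 and 0.24 in WT and 0.29, 0.28 and 0.17 in KO, so they were treated as pairs in a further fit of the interaction. Chi-square per degree of freedom between LPS-treated replicates was 4.50 to 24.1, so none was a repeated library. Named genes were the called ones, the 10 with the smallest adjusted p in each direction under 2-fold, list members past the adjusted p or with the most reads, the 10 highest genes, genes the study tested singly, and low genes with reads in 1 genotype. The members and lists were chosen with earlier results of these data known. Gene coordinates are from GENCODE on GRCm38. The depth of 19316691 to 22912116 reads in genes limits genes of low level first. Some genes among those called or listed are not reported here.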

Additional observations from a re-analysis of the deposited data

Results flagged for a closer look

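*Ccl4*, which encodes the chemokine MIP-1 beta, was singled out because its difference between genotypes was not the same with and without LPS, by the test of the interaction itself. The interaction was 0.93 on the log2 scale (SE 0.08, adjusted p = 3.7e-04, limma over 12 libraries), from a KO minus WT difference of −0.98 in untreated macrophages and −0.05 after LPS. All 3 untreated KO libraries, at 571 to 642 normalized counts, were below all 3 untreated WT libraries, at 1142 to 1248. Over the alternatives its value ran from 0.89 to 1.13, and the largest adjusted p was 0.0098.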

How the results depend on the processing

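The counts of genes called lower and higher in KO (8 and 21) moved by more than 1.5 times in these settings. Without a filter on low values 13 were called lower. Without a variance trend in limma 2 were called lower and 3 higher. DESeq2 called 17 lower. With the *Xist* level as a term, chosen after seeing the data, 15 were called lower, and in the libraries low in *Xist*, also chosen after seeing the data, 8 were called higher. With no fold threshold 39 lower and 63 higher genes passed, and with 1.5-fold 23 and 46. Leaving out each library gave 4 to 21 lower (lowest without WT replicate 2, highest without KO replicate 1) and 7 to 21 higher (lowest without WT replicate 2). Without WT replicate 2, 19 of the 29 calls were lost, so a loss there was shared by most called genes. No called gene changed direction under the up to 20 settings that tested it, 7 of the 29 kept the call with each library left out, and *Akr1e1*, *Atf7ip2*, *Gm16867* and *Rasgef1b* kept it in every setting that tested them. The median log2 fold change of all genes moved by less than 0.1 under each scaling.

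For the interaction, DESeq2 called 24 genes against 1 in limma and edgeR, leaving out each library gave 1 to 3, and with at least 2-fold required limma called 0 (537 genes had an unadjusted p under 0.05). In the comparison after LPS, WT and KO libraries of the same number did not deviate together (r −0.20, −0.04 and 0.06), so the numbers do not pair them. A replicate block gave 9 lower and 18 higher there and 3 genes for the interaction, and pairing within each genotype, chosen after seeing the data, gave 6. The depth limits genes with means under 100 normalized counts, where the smallest change that passed was 0.97 on the log2 scale. The causes of these shifts were not tested.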
